A study of Mus musculus with 6 samples.

Results

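The 5 microRNA (miRNA) hairpins Mir532, Mir188, Mir362, Mir501 and Mir500 lie in introns of Clcn5, the gene of an endosomal chloride and proton exchanger. They were taken from a table of 1973 miRNA genes by their GENCODE M21 names, and each of the 5 names matched 1 row. The table held small RNA counts from exosomes of HN9.10e cells, an immortalized mouse embryonic hippocampal line of wild-type genotype. A total of 3 libraries came from untreated cells (control) and 3 from cells given 100 nM ceramide, with the exosomes collected from the medium after 48 h. The cells are a single line grown with fetal bovine serum, and no step that removes vesicles of the serum is stated.

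A miRNA hairpin is cut from a longer transcript by Drosha and then by Dicer, which leaves a mature miRNA from each arm, named 5p and 3p. Bases 2 to 8 of a mature miRNA form its seed, the stretch that does most of the pairing with target mRNAs. Hairpins in an intron on the strand of the host gene can be transcribed together with it, while the steps after transcription can differ from hairpin to hairpin. In hippocampal neurons miR-188-5p is known to repress neuropilin-2 and miR-501-3p the AMPA receptor subunit GluA1.

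The hairpins lie on chromosome X of GRCm38 on the minus strand, as does Clcn5 (7153810 to 7319358). In the direction of transcription the first is Mir532 (7248402 to 7248497), followed by Mir188 (7247989 to 7248056). Then come Mir362 (7241982 to 7242046), Mir501 (7241243 to 7241351) and Mir500 (7237683 to 7237774). The 5 hairpins span 10815 bases and share a stretch of 103648 bases, from 7213011 to 7316658, that holds no annotated exon of Clcn5. Mir532 and Mir188 are 345 bases apart and Mir362 and Mir501 630 bases, while 5942 bases part Mir188 from Mir362 and 3468 bases part Mir501 from Mir500.

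The mature miRNAs are shown with the seed in capitals, as given by RefSeq for GRCm38.p6, because 2 seeds recur among the members. miR-532-5p is named only.
miR-500-5p: aAUCCUUGcuaucugggugcuuagu
miR-362-5p: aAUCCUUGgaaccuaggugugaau
miR-501-5p: aAUCCUUUgucccugggugaaa
miR-188-5p: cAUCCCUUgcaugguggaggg
miR-500-3p: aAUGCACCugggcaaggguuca
miR-501-3p: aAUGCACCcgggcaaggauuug
miR-362-3p: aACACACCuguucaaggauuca
miR-532-3p: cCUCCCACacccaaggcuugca
miR-188-3p: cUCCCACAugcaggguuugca

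The seed AUCCUUG is common to miR-500-5p and miR-362-5p, and the seed AUGCACC to miR-500-3p and miR-501-3p. No hairpin outside the cluster carried either of these 2 seeds in the RefSeq table. Counted from 1 at the 5′ end, miR-500-3p and miR-501-3p differ by 4 substitutions, U9C, G18A, C21U and A22G, all outside the seed. Over their first 22 bases miR-500-5p and miR-501-5p differ by 7 substitutions, of which G8U is in the seed. The full hairpins of the closest pair are printed with the mature arms in capitals.
Mir500: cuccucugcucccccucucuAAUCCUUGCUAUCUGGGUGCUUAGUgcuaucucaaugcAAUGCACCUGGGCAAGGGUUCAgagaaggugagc
Mir501: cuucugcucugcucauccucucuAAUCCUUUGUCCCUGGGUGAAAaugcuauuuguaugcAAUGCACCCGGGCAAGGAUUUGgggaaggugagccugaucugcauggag
The longest stretch that Mir500 and Mir501 have in common is 14 bases, and the other pairs share between 5 and 10. None of the 5 hairpins shared a stretch of 18 bases with any of the 1894 rows that have a GENCODE sequence. A row counts a whole hairpin, so reads of its 5p and 3p arms are not told apart.

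The libraries held 800810 to 2760015 counts in all, and the cluster took 0.204% to 0.223% of them in control exosomes and 0.157% to 0.163% in ceramide exosomes. Whether the kit's molecular identifiers were used to merge copies is not stated, so the counting intervals given here cover counting error only. The library names give lane 1 for replicate 1 of both groups, lane 4 for the other control libraries and lane 2 for the other ceramide libraries. They do not say whether libraries with the same lane number shared a run. The cell type was checked on 17 miRNA genes known from neurons, of which 16 matched a row, all with counts. Their summed level was 21662 to 22850 normalized CPM in the control libraries and 20168.5 to 25096 CPM in the ceramide libraries. Of the 16 rows 11 were lower in ceramide and 5 higher, with a median log2 fold change of -0.16 and 2 called, both lower. These were Mir128-2, at -0.78 (adjusted p = 0.0026 by edgeR), and Mir138-1, at -0.76 (adjusted p = 0.00529 by edgeR), while Mir218-2, the most abundant of the list, was at 0.46 and not called. Among them, the 3 copies of mir-124, the classical neuronal miRNA, had only 11 to 39 counts per row and library. The 3 mir-124 rows, all lower, had nearly equal counts in each library, as had Mir9-2 and Mir9-3, both higher. These copies are not separate observations, and the sum and the counts of 11 and 5 include them more than once. Of 9 listed miRNAs of blood and serum 6 matched a row. Their summed level overlapped between the groups, at 1079 to 1213 CPM in control libraries and 1076 to 1253 CPM in ceramide libraries, and most of it was Mir126a (log2 fold change 0.03). Of the 6 rows 5 were higher in ceramide, with a median log2 fold change of 0.21, and none was called. The listed Mir486a, Mir486b and Mir142 matched no row by name, and the rows Mir486 and Mir142b were left out of these values. Mir486, at 268 ± 25.5 CPM in control and 221 ± 39.9 CPM with ceramide (SD, n = 3 each), had a log2 fold change of -0.26. Mir142b, at 26.2 ± 4.25 and 34.7 ± 2.72 CPM (SD, n = 3 each), was at 0.40 with no overlap. Neither was called. All ceramide libraries lay above all control libraries for Mir122, known from liver, at 56.5 ± 5.04 CPM in control and 74.4 ± 0.896 CPM with ceramide (SD, n = 3 each). They did so too for Mir223, known from myeloid cells, at 20.5 ± 2.0 and 31.4 ± 4.61 CPM (SD, n = 3 each). The adjusted p by edgeR was 0.0635 for Mir122 and 0.0553 for Mir223. Over all tested rows, the groups did not overlap, in either direction, in 39.2%. The part of either list in the results on the cluster was not tested.

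Of the 5 rows only Mir500 was called between ceramide and control exosomes, and it was lower in ceramide. A row was called where its Benjamini-Hochberg adjusted p from edgeR was at most 0.05 and its absolute log2 fold change at least 0.6. By this rule 48 of the 418 tested rows (11.5%) were called, 13 higher and 35 lower (8.37%). With other scalings the higher and lower calls numbered 21 and 26 (DESeq2 size factors), 23 and 28 (upper quartile) or 4 and 42 (library size alone). All 5 members passed the filter on low counts, and all 5 had a negative log2 fold change, as did 212 of the tested rows (50.7%). In 4 of the 5 rows all ceramide libraries lay below all control libraries, which held for 25.1% of the tested rows. An unadjusted p under 0.05 with a lower level was reached by 4 of the 5, and by 22% of the tested rows. The median log2 fold change was -0.55 over the members and -0.01 over all tested rows.

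**Figure D1:**
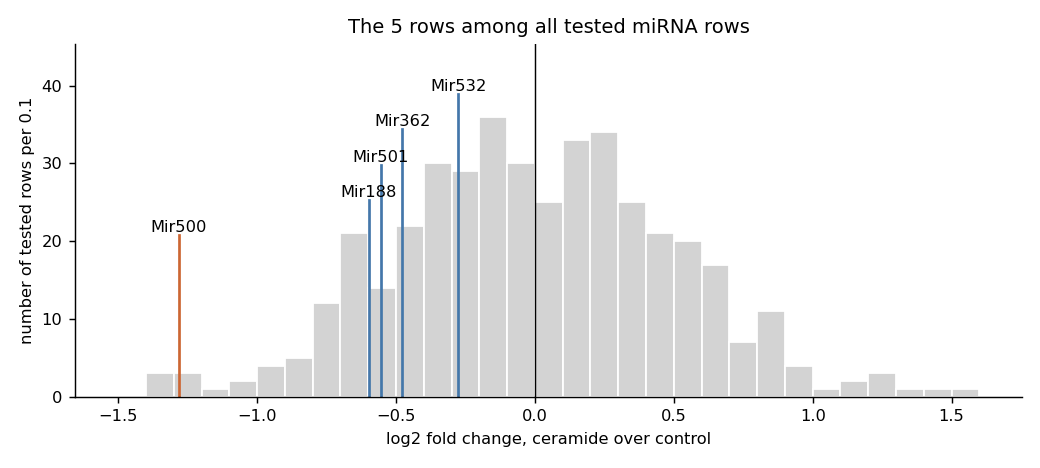
The histogram gives the number of tested miRNA rows (vertical axis) at each log2 fold change of ceramide over control (horizontal axis), in steps of 0.1, and the lines mark the 5 rows of the cluster, with the called row in orange. All 5 lines lie left of 0, Mir500 at -1.28 near the lowest row of all at -1.38 and the others between -0.60 and -0.28.

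Mir500 had 91.8, 86.0 and 82.7 normalized CPM in control replicates 1, 2 and 3 and 36.4, 33.3 and 37.5 CPM in ceramide replicates 1, 2 and 3. The groups were far apart, and the lowest control library was above the highest ceramide library by more than the spread of either. The means were 86.8 ± 4.61 and 35.7 ± 2.14 CPM (SD, n = 3 each), resting on 92 to 121 counts per control library and 28 to 88 per ceramide library. Mir500 fell to 0.411 of its control level, a log2 fold change of -1.28 (95% interval -1.57 to -0.99, adjusted p = 0.00188 by edgeR's quasi-likelihood test). Only 3 of the 418 tested rows had a lower log2 fold change. The spread of Mir500 between replicates, 5.31% of the mean in control and 6.0% in ceramide, was no larger than the counting error of 9.64% and 13.4% that its counts imply. Leaving aside a fit with the lane as a term, given after the paired values, Mir500 was also called in each of 16 alternative settings. Its log2 fold changes there lay between -1.36 and -1.21. The setting by adjusted p alone is the main fit without the fold threshold, so its call there was fixed in advance. The highest adjusted p among the 16 was 0.0254 by edgeR, without ceramide replicate 2. In edgeR's test against a fold of 1.5, which called 1.91% of the rows as lower, it was 0.0195, and with DESeq2, which called 6.64% as lower, it was 0.000144.

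Mir532 was by far the most abundant member. It had 1697, 1863 and 1606 CPM in the control libraries and 1438, 1483 and 1345 CPM in the ceramide libraries. All ceramide libraries lay below the controls, by a small margin. The means were 1722 ± 130 and 1422 ± 70.1 CPM (SD, n = 3 each), with at least 1107 counts in each library. For Mir532 the log2 fold change was -0.28 (95% interval -0.49 to -0.06), and it was not called (adjusted p = 0.0763 by edgeR). Its spread of 7.55% in control and 4.93% in ceramide exceeded the counting error of 2.17% and 2.13%.

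Mir188 was the scarcest member, with 33 to 48 counts per control library and 24 to 56 per ceramide library. Its level was 32.9, 34.1 and 32.9 CPM in the control libraries and 31.2, 21.2 and 17.0 CPM in the ceramide libraries. The control libraries were nearly level, and ceramide replicate 1 stood just below them, apart from the other ceramide libraries. The control spread of Mir188, 2.07%, was below the counting error of 15.6%, so its controls lay closer together than the counts imply. In ceramide its spread of 31.4% exceeded the counting error of 16.5%. The 24 counts of ceramide replicate 1 have an exact 95% Poisson interval of 15.4 to 35.7 counts. The log2 fold change was -0.5985 (95% interval -1.13 to -0.06), and Mir188 was not called (adjusted p = 0.106 by edgeR). It was called without ceramide replicate 1, the ceramide library nearest the controls, at -0.82 (adjusted p = 0.0209 by edgeR). In that setting 55 rows were called in all, against 48 with all libraries. With any other single library left out Mir188 was not called, at log2 fold changes from -0.61 to -0.42. It was called with limma-voom (-0.69, adjusted p = 0.0494), which called 8.61% of the rows as lower.

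Mir362 had 109, 120 and 77.6 CPM in the control libraries and 74.1, 72.0 and 74.1 CPM in the ceramide libraries. The ceramide libraries were nearly equal and control replicate 3 lay close to them, while the other control libraries were higher. The means were 102 ± 22.1 and 73.4 ± 1.22 CPM (SD, n = 3 each). The spread of Mir362 was 21.6% in control, above the counting error of 8.99%. In ceramide it was 1.66%, below the counting error of 9.36%, so these libraries lay closer together than the counts imply. For Mir362 the log2 fold change was -0.48 (95% interval -0.90 to -0.06), and it was not called (adjusted p = 0.103 by edgeR). Without control replicate 3, the control library nearest the ceramide libraries, it was -0.65 and called (adjusted p = 0.0332 by edgeR). In that setting 47 rows were called in all. With any other single library left out Mir362 was not called, at log2 fold changes from -0.50 to -0.32.

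Mir501 had 116, 106 and 162 CPM in the control libraries and 52.0, 90.9 and 112 CPM in the ceramide libraries. It was the member whose groups overlapped, since ceramide replicate 3 lay above control replicate 2. The log2 fold change was -0.55 (95% interval -1.24 to 0.13, adjusted p = 0.211 by edgeR), and the interval included no change. The spread of Mir501, 23.6% in control and 36.0% in ceramide, was well above the counting error of 8.06% and 9.47%. With each library left out in turn, the log2 fold change of Mir501 ranged from -0.78 without ceramide replicate 3 to -0.34 without control replicate 3, and it was -0.36 without ceramide replicate 1.

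**Figure D2:**
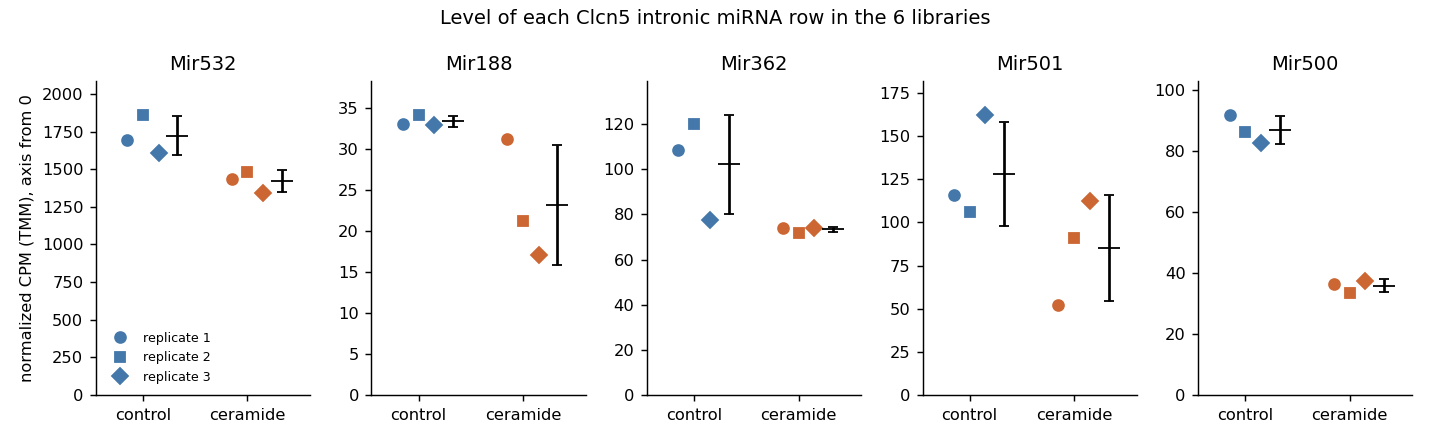
Each panel gives the normalized CPM of 1 row (vertical axis from 0, own scale) in the 3 control libraries (blue) and the 3 ceramide libraries (orange), with the marker shape for the replicate number and a black bar for the mean and SD. For Mir500 the nearest libraries of the groups are at 82.7 and 37.5 CPM, and only the groups of Mir501 overlap.

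Libraries with the same replicate number deviated together, so each ceramide library was also set against the control library of its number. Within the numbers 1, 2 and 3 Mir500 differed by -1.34, -1.37 and -1.14 in log2 CPM. For Mir532 the differences were -0.24, -0.33 and -0.26. These 2 rows kept nearly the same difference in each pair. The differences of Mir188 were -0.08, -0.69 and -0.95, those of Mir362 -0.55, -0.74 and -0.07, and those of Mir501 -1.16, -0.22 and -0.53. All differences were negative in the 5 rows, which were measured in the same 3 pairs of libraries and are not separate observations. The same must hold for at least the 25.1% of tested rows whose ceramide libraries all lay below all control libraries. The full share of such rows was not counted. The differences of Mir188, Mir362 and Mir501 varied several-fold and were smallest in a different pair for each. With the replicate number as a block, the adjusted p of edgeR was at most 0.05 for 5 of the 5 rows, where 24.9% of the tested rows had such a p and were lower. Without the block it was so for 1 of the 5 and 12.7% of the tested rows. With the block Mir188 passed both thresholds too, at a log2 fold change of -0.64 (adjusted p = 0.0269 by edgeR), and 11.7% of the tested rows were called lower. The adjusted p with the block was 0.0178 for Mir532, 0.0458 for Mir362, 0.0354 for Mir501 and 0.000597 for Mir500 by edgeR. The labels state no pairing, so these values depend on a pairing read from the same counts.

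**Figure D3:**
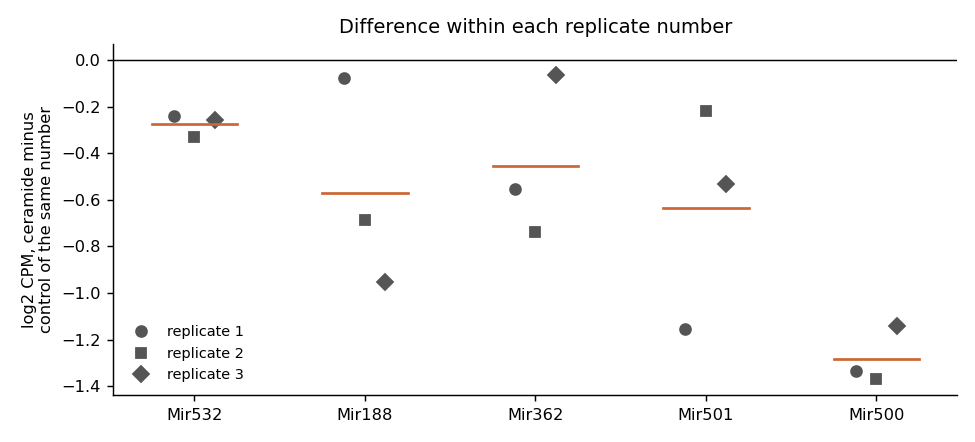
For each row the log2 CPM of a ceramide library minus that of the control library with the same replicate number (vertical axis) is drawn as a marker per number, with an orange line for the mean of the 3. All markers lie below 0, those of Mir500 between -1.37 and -1.14 and those of Mir532 between -0.33 and -0.24.

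Lane number 1 was given for replicate 1 of both groups, so the first of each set of differences is also that within lane number 1, between 1 library a group. The other lane numbers were each given for libraries of 1 group only, and an effect of lanes 2 and 4 cannot be told apart from that of ceramide. In an edgeR fit with the lane as a term, where 6.94% of the rows were called, the ceramide effect rests on these 2 libraries alone. Its log2 fold changes, such as -1.33 for Mir500, therefore restate the first differences. The adjusted p of Mir500 in that fit, 0.0475 by edgeR, takes the 2 libraries to vary like those of the other lanes and is no separate evidence.

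In the order of transcription the log2 fold changes were -0.28 for Mir532, -0.5985 for Mir188, -0.48 for Mir362, -0.55 for Mir501 and -1.28 for Mir500. Mir532, the first hairpin, had the smallest change and Mir500, the last, the largest. The 95% intervals of the 3 hairpins between them overlapped that of Mir532, whereas the interval of Mir500 did not and overlapped those of Mir188 and Mir501. With the replicate number as a block, the interval of Mir500 (-1.504 to -1.038) still overlapped that of Mir188 (-1.07 to -0.22) but no longer that of Mir501 (-0.92 to -0.15).

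**Figure D4:**
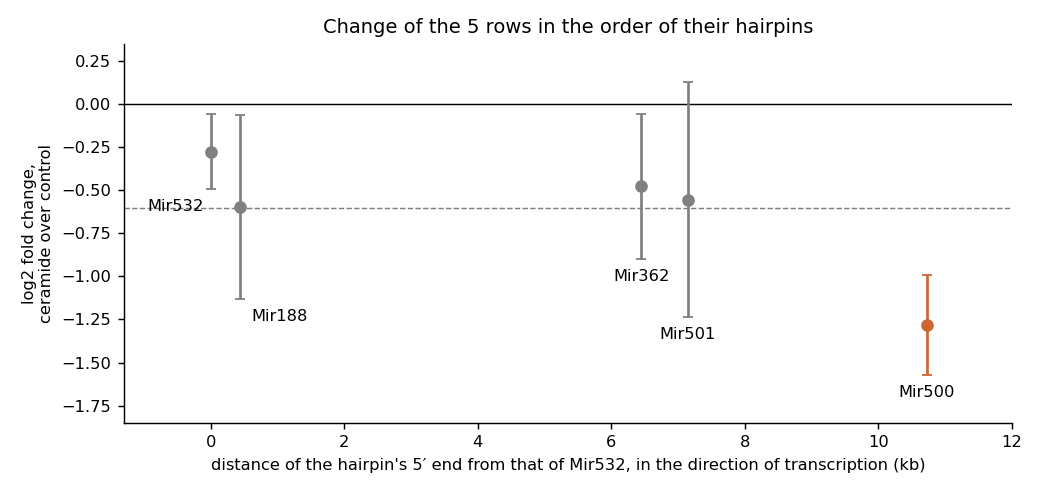
The log2 fold change of each row with its 95% interval (vertical axis) is plotted against the distance of its hairpin from that of Mir532 in the direction of transcription (horizontal axis, kb), with the called row in orange and the fold threshold dashed. Mir500, 10.723 kb from Mir532, is at -1.28 with an interval from -1.57 to -0.99, below that of Mir532, which runs from -0.49 to -0.06.

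Whether the members changed alike was asked with the ratio of their counts within a library, which needs no scaling. Each log2 ratio was compared between the groups by an exact two-sided permutation test over 10 pairs of members, where 3 libraries against 3 cannot give a p under 0.1. The log2 ratio of Mir532 to Mir500 was 4.20, 4.43 and 4.27 in the control libraries and 5.28, 5.47 and 5.16 in the ceramide libraries. It was thus higher by 1.00 in ceramide exosomes, with no overlap (exact permutation p = 0.1, adjusted 0.333). The ratio of Mir188 to Mir500 was higher by 0.71 and that of Mir362 to Mir500 by 0.82, again with no overlap (exact permutation p = 0.1 for each, adjusted 0.333). The ratio of Mir501 to Mir500 was higher by 0.64, with overlap (exact permutation p = 0.2, adjusted 0.5). These 4 ratios were higher in ceramide within every replicate number. All 4 are taken to Mir500, so they are not separate from one another or from the lower level of Mir500 itself. Among the 6 ratios that leave Mir500 out, the groups overlapped in each, and the differences lay between -0.12 and 0.36 (exact permutation p between 0.4 and 1).

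**Figure D5:**
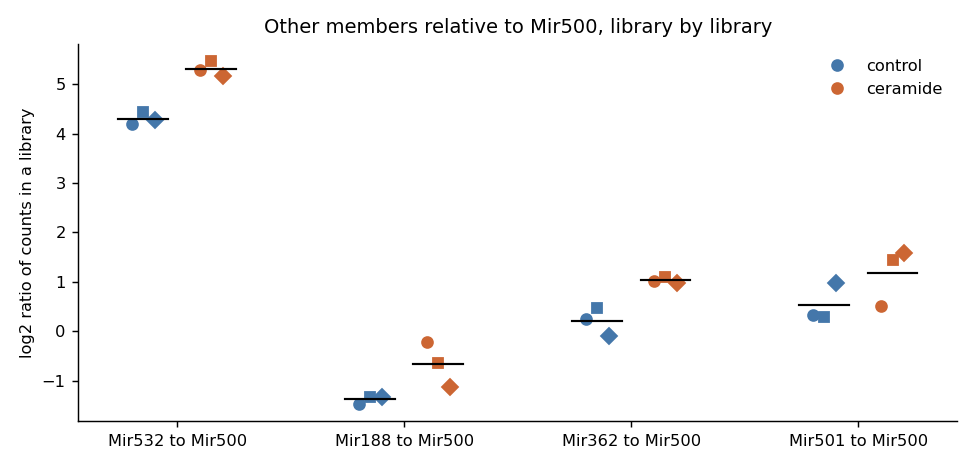
The log2 ratio of the counts of the other members to those of Mir500 in a library (vertical axis) is shown for the 3 control (blue) and 3 ceramide libraries (orange), with the marker shape for the replicate number and a black line for the mean. The ceramide libraries lie above the control libraries for Mir532, Mir188 and Mir362, and for Mir501 ceramide replicate 1, at 0.51, lies below control replicate 3, at 0.97.

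The ratios also compare the members that share a seed. Mir362, whose 5p arm has the seed of miR-500-5p, had a log2 ratio to Mir500 of 0.24, 0.48 and -0.09 in the control libraries and of 1.01, 1.11 and 0.98 in the ceramide libraries. The counts of these 2 rows were thus near each other in control exosomes, and in each ceramide library those of Mir362 were clearly the higher. Mir501, whose 3p arm has the seed of miR-500-3p, had log2 ratios of 0.33, 0.30 and 0.97 in control and of 0.51, 1.44 and 1.58 in ceramide exosomes. Outside the cluster, miR-329-3p has the seed of miR-362-3p and comes from the imprinted Dlk1-Dio3 locus on chromosome 12. Its sequence is shown for comparison.
miR-329-3p: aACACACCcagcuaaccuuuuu
Mir329 had 41.9, 39.8 and 32.2 CPM in the control libraries and 44.2, 49.6 and 40.0 CPM in the ceramide libraries. Its groups overlapped, and with a log2 fold change of 0.24 (95% interval -0.15 to 0.62, adjusted p = 0.314 by edgeR) it was not called.

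As a share of the cluster's counts, Mir500 made up 4.49%, 3.89% and 4.21% in the control libraries and 2.23%, 1.96% and 2.36% in the ceramide libraries. The widest exact (Clopper-Pearson) 95% interval in control, that of replicate 1, ran from 3.63% to 5.47%, and in ceramide, again replicate 1, from 1.49% to 3.21%. The share of Mir500 was lower by 2.01 percentage points on average in ceramide exosomes, from 4.20 ± 0.296% to 2.18 ± 0.205% (SD, n = 3 each, exact permutation p = 0.1, adjusted 0.25 over the 5 shares). The share of Mir532 went from 83.0 ± 1.23% to 86.7 ± 1.72%, also without overlap (SD, n = 3 each, exact permutation p = 0.1, adjusted 0.25). The shares of Mir188, Mir362 and Mir501 overlapped between the groups. The 5 rows summed to 2073 ± 126 CPM in control and to 1640 ± 57.3 CPM with ceramide (SD, n = 3 each), and without Mir532 to 350 ± 4.79 and 217 ± 23.7 CPM.

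Scaled per 100 bases of hairpin, the order of levels in control exosomes was Mir532 (1794 ± 136 CPM), Mir362 (157 ± 33.9), Mir501 (117 ± 27.7), Mir500 (94.4 ± 5.02) and Mir188 (49.0 ± 1.02; SD, n = 3 each). The libraries of Mir362 and Mir501 overlapped, as did those of Mir501 and Mir500, so these neighbours were not separated beyond their spread. In ceramide exosomes the order on the same scale was Mir532 (1481 ± 73.0 CPM), Mir362 (113 ± 1.87), Mir501 (78.1 ± 28.1), Mir500 (38.8 ± 2.33) and Mir188 (34.0 ± 10.7). There Mir500 overlapped with Mir188 and no other neighbours did. The hairpin length includes bases outside the mature arms, so the scaled order is not an order of mature miRNA levels. On the CPM scale without the length, the mean of Mir501 was above that of Mir362 in both groups, but the libraries of these 2 rows overlapped in each.

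Over the 6 libraries, Pearson's r of log2 CPM was 0.89 between Mir532 and Mir362 and 0.86 between Mir532 and Mir500. Mir501 followed the others least, with r of 0.62 with Mir500, 0.35 with Mir532 and 0.03 with Mir188. These values describe 6 points from 2 groups in common libraries. The rows outside the cluster whose log2 CPM was most like the cluster's summed level were Mir181c (r = 0.993), Mir344b (0.988), Mir878 (0.986), Gm25301 (0.982) and Mir465 (0.980), over the same 6 libraries. Because Mir532 made up over 80% of the sum, this is mainly likeness to Mir532. Mir181c, on chromosome 8, had 86.6 ± 9.40 CPM in control and 59.5 ± 4.55 CPM with ceramide (SD, n = 3 each), and its log2 fold change was -0.54 (adjusted p = 0.039 by edgeR), under the fold threshold. Mir878 (66801508 to 66801585) and Mir465 (66839052 to 66839125) are on chromosome X as well, away from Clcn5, with log2 fold changes of -0.49 and -0.34.

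Other miRNAs hosted by introns were taken from the annotation of the same chromosome. Of 39 rows on chromosome X in an intron of another protein-coding gene 8 were tested, with 4 higher and 4 lower in ceramide and a median log2 fold change of -0.02. The called rows were Mir361 in Chm, lower by a log2 fold change of -0.95, and Mirlet7f-2 in Huwe1, higher by 0.65. Mir1198 in Gripap1, the nearest of the 8 to the cluster, was at -0.51 (adjusted p = 0.0325 by edgeR), under the fold threshold. Of the 76 remaining rows of the chromosome 38 were tested, 28 of them lower and 10 higher, with 6 called, all lower, and a median of -0.24. Some of these rows are copies, such as Mir465b-1 and Mir465b-2, with 33049 counts each, and Mir465c-1 and Mir465c-2, with 89909 each. The called Mir19b-2 had 5260 counts, near the 5268 of Mir19b-1 on chromosome 14. These rows are thus not all separate observations. No row other than the 5 members overlapped Clcn5.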

How the data were processed

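Small RNA of exosomes from 3 control and 3 ceramide samples of HN9.10e cells was sequenced with the QIAseq miRNA kit. The authors trimmed the reads (Cutadapt 1.15), mapped them to GRCm38 with STAR 2.5.3a and deposited raw counts per GENCODE miRNA gene. The use of strand and the treatment of multiply mapping reads are not given in the sources used here. Groups and replicate numbers were read from the titles of the samples. The labels do not say what a replicate number stands for, so p-values measure the spread between these libraries.

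Counts were tested in R 4.3.3 with the quasi-likelihood test of edgeR 4.0.16, after filterByExpr (418 rows) and TMM scaling, with all 6 libraries and condition as the single term. The p-values were adjusted over all tested rows by the Benjamini-Hochberg method. DESeq2 1.42.0, limma-voom (limma 3.58.1), other scalings and filters, a lane term and the omission of each library were alternatives. Normalized CPM used the TMM library sizes. Log2 CPM had a prior count of 2 and log2 ratios 0.5. The numbers were taken to pair the libraries because deviations from the group means correlated at 0.59, 0.43 and 0.75 within the 3 numbers. Across the numbers the correlation was at most 0.10. Deviations cancel out within a group, so high values within numbers push those across them down. The values across numbers are thus no separate evidence of pairing.

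The members, lists and tests were chosen with earlier results of these data known. The named rows were the 5 members, rows that share a seed, called rows among those in introns on chromosome X and the 5 rows most correlated with the summed cluster. Mir1198, Mir878 and Mir465 were described further after their values had been seen. Sequences came from RefSeq (GRCm38.p6) and GENCODE M21, which gave names to 1894 of the 1973 rows.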

Additional observations from a re-analysis of the deposited data

How the results depend on the processing

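All 5 rows had a negative log2 fold change in each of the 17 alternative settings, and Mir500 was called in each. The fit with the lane as a term rests on 1 library a group. The setting by adjusted p alone and the test against a fold of 1.5 have the log2 fold changes of the main fit. Their signs, and the call of Mir500 by adjusted p alone, could not differ from the main result. Mir532 and Mir501 were called in none, Mir362 in 1 and Mir188 in 3. The number of members called rose from 1 to 2 with limma-voom and with the replicate block, and it lay between 1 and 2 with each library left out in turn. The number of all called rows, 48, became 87 with the replicate block, 29 with the lane as a term, 83 by adjusted p alone and 8 in a test against a fold of 1.5, and it ranged from 28 (without control replicate 1) to 55 with each library left out. Of the 10 ratios between members, the 3 without overlap stayed at 3 with other prior counts and ranged from 3 to 5 with each library left out (5 without control replicate 3 or without ceramide replicate 1). With the replicate block 4 ratios kept a single direction in all pairs, those to Mir500. With each library left out, the ceramide difference of the ratio of Mir188 to Mir362 ranged from -0.35 to 0.088, that of Mir188 to Mir501 from -0.49 to 0.50 and that of Mir362 to Mir501 from -0.19 to 0.43, so these changed sign. The cause of these moves was not tested.
The joining of members that share 18 bases gave no value because no members do. The replicate block changed the call of no member other than Mir188. Among the members Mir188 had the fewest counts, and its 24 to 56 counts carry a counting error of about 16.5% per ceramide library. Its spread between the ceramide libraries, 31.4%, was larger still.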
